A study of Homo sapiens with 6 samples.

Results

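The 60S ribosomal subunit assembly factors are the proteins that build the large ribosomal subunit without being part of it. A list of 60 such factors was drawn up by gene symbol, and all 60 were found among the 61541 Ensembl genes of the count table. The measurements were bulk RNA-seq libraries of H9 cells, an established line of cutaneous T-cell lymphoma (CTCL) labelled as wild type in both groups. There were 3 libraries from cells given DMSO, the vehicle, and 3 from cells given AZD4573, a selective inhibitor of CDK9, for 4 h. CDK9 is the kinase that releases paused RNA polymerase II (RNAP2) into productive elongation, and the comparison asked which assembly factor transcripts changed once it was inhibited. The labels give a time for the AZD4573 libraries alone. They do not say whether the replicates were separate cultures, so the p-values measure the spread between libraries, which may be technical. H9 is a single line, and a change in RNA per cell or in cell number cannot be told apart in libraries of this kind.

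The large subunit is assembled on a long precursor RNA in the nucleolus. Scaffold proteins, RNA helicases, methyltransferases and GTPases fold and trim that precursor, and the 5S RNA with its bound proteins is added as a ready-made particle. The particle then moves to the nucleoplasm, where the remaining spacer (ITS2) is removed and its folding is inspected, and it is exported to the cytoplasm, where the last factors are released. Many of these factors act in a fixed order and as parts of shared complexes, and they are in high demand in proliferating lymphocytes.

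Total counts ranged from 70367303 to 76571157 with DMSO and from 52101868 to 63795185 with AZD4573. Levels are given as CPM, a gene's share of the counts of its library, after TMM normalisation, which scales libraries by their size and composition. The members were covered by 634 to 93283 counts in a library, so that counting error was small for each of them. As a check of the label, the summed level of 10 T-cell genes was 1224 to 1233 CPM with DMSO and 1417 to 1466 CPM with AZD4573, with CD2 at 0.105 CPM in the DMSO group. The summed level of 10 genes of B cells, myeloid, erythroid and epithelial cells was 205 to 229 CPM and 226 to 236 CPM, carried by EPCAM and CD79A, and HBB had 0 counts in all 6 libraries. The mRNAs encoded by mitochondrial DNA, which RNAP2 does not transcribe, took 3.04% to 3.22% of the counts with DMSO and 4.67% to 4.98% with AZD4573.

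Transcripts of most 60S assembly factors were lower with AZD4573, by widely different amounts. All 60 members passed the filter on low counts. With an adjusted p under 0.05 (edgeR's quasi-likelihood test, adjusted by the Benjamini-Hochberg method for 17678 genes), 46 members were lower and 8 were higher, and 6 did not pass. Over all genes tested, 37.4% were lower and 37.3% higher. A fall of at least 1.5-fold was called for 27 members, against 23.7% of all genes, and a rise of that size for 0 members, against 22.7% of all genes. The median log2 fold change of the members was -0.53, whereas that of all genes tested was 0.03. Values ranged from -2.37 for URB2 to 0.49 for SENP3, and 51 members lay below the median of all genes. Every AZD4573 library lay below every DMSO library for 47 members, which held for 38.7% of all genes, and above for 9 members, which held for 39% of all genes. The groups overlapped for the other 4.

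**Figure D1:**
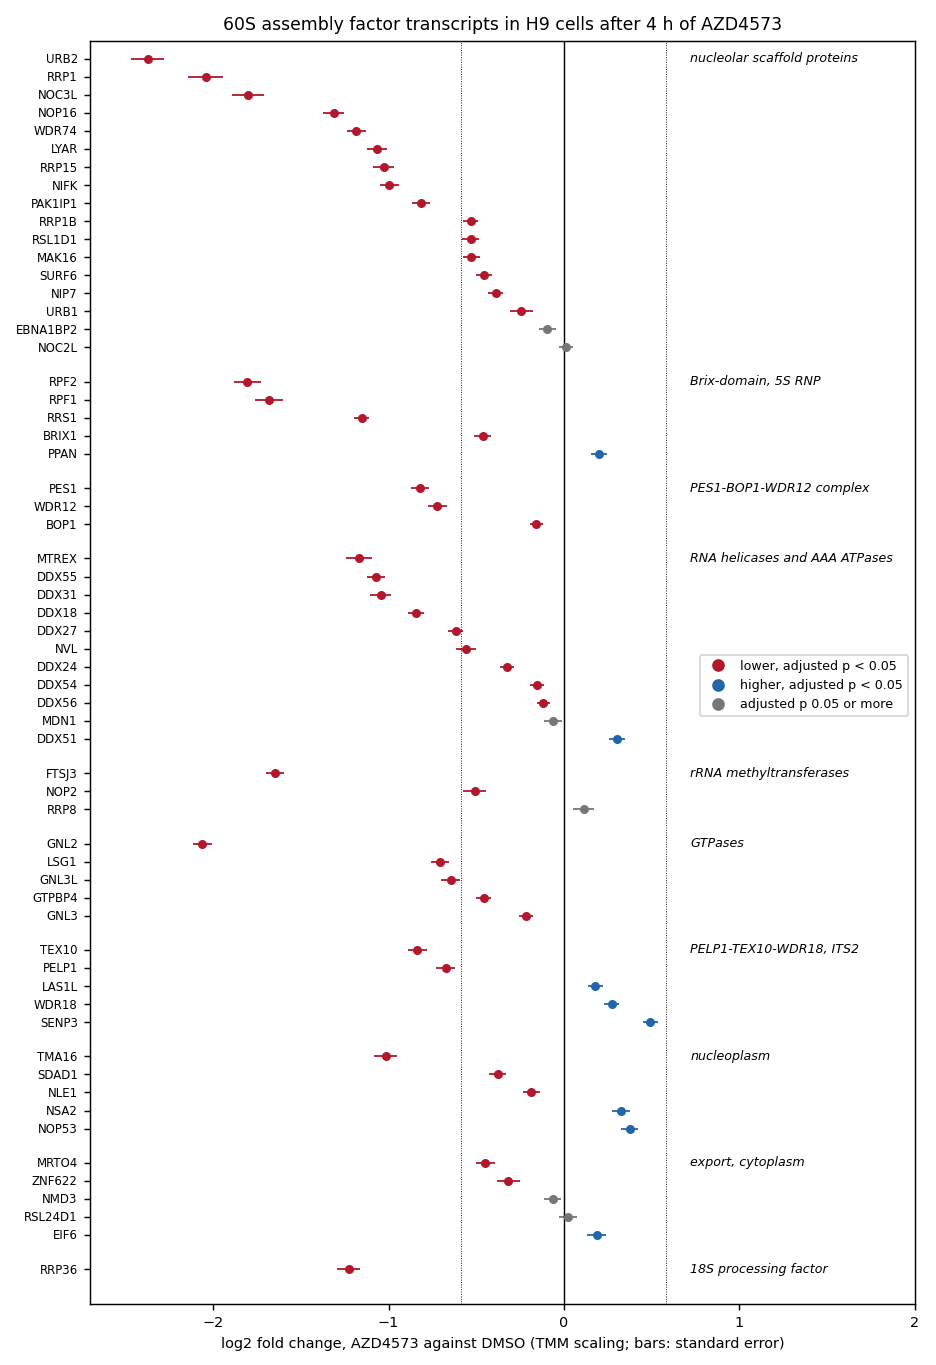
Log2 fold change (AZD4573 against DMSO, TMM scaling, x axis) of each of the 60 members, grouped by role, with standard errors as bars and dotted lines at 1.5-fold in either direction. Members run from -2.37 (URB2) to 0.49 (SENP3), and the 8 higher ones (blue) all lie below 1.5-fold and turn negative when the libraries are scaled to mitochondrial mRNAs.

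These values depend on how the libraries are scaled. With the libraries scaled to the 13 mitochondrially encoded mRNAs, all 60 members were lower and 0 were higher, against 67.2% and 12.1% of all genes. A fall of at least 1.5-fold was then called for 52 members, against 53.4% of all genes. The median of the members was -1.27, and the median of all genes was -0.71. Relative to the median of all genes, the members stood at -0.56 under either scaling. Falls below are therefore falls against the typical transcript, and each rise is a rise against the typical transcript that is a fall against the mitochondrial mRNAs. The summed level of the 60 members was 8861, 8712 and 8559 CPM in the DMSO libraries and 7178, 7152 and 7047 CPM in the AZD4573 libraries.

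Scaffold proteins of the nucleolar particle made up the largest group, with a median log2 fold change of -0.81. Of its 17 members 15 fell, against 37.4% of all genes tested. URB2 (ENSG00000135763, chr1:229626247-229660200, plus strand; positions are from GENCODE 44 on GRCh38), a component of early particles, had 64.3, 64.2 and 64.2 CPM in the DMSO libraries and 14.7, 12.2 and 10.4 CPM in the AZD4573 libraries. The groups lay far apart, and URB2 fell 5.18-fold (log2 fold change -2.37 ± 0.0921 (SE), adjusted p = 1.2e-10). RRP1 (ENSG00000160214, chr21:43789513-43805293, plus strand), required for processing of the precursor of 28S RNA, had 119, 123 and 121 CPM with DMSO and 36.2, 27 and 25.2 CPM with AZD4573. It fell 4.12-fold (-2.04 ± 0.099 (SE), adjusted p = 6.9e-10), with no overlap between the groups. NOC3L, a partner of the NOC2 protein in early particles, followed at -1.80.

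A partner or paralog of each of these genes moved far less. URB1, which works beside URB2, changed by -0.24 on the log2 scale, and RRP1B, the paralog of RRP1 at chr21:43659560-43696079 on the same strand, by -0.53. NOC2L, the NOC2 protein itself, had 267, 268 and 262 CPM with DMSO and 263, 270.2 and 271 CPM with AZD4573. The groups overlapped, and the difference of 0.01 ± 0.0376 (SE) did not pass the test (adjusted p = 0.78), whereas with library size as the only scaling it was -0.09 with an adjusted p of 0.0261. EBNA1BP2, a nucleolar scaffold protein, had 166, 151 and 149 CPM with DMSO and 144, 144 and 149 CPM with AZD4573. Each AZD4573 library was below each DMSO library by a small margin, and the difference of -0.09 ± 0.0478 (SE) did not pass (adjusted p = 0.092). Leaving out DMSO replicate 3 took EBNA1BP2 past the threshold, with -0.14 and an adjusted p of 0.0374. So did library size as the only scaling (-0.20, adjusted p = 0.0014) and the lack of a filter (-0.14, adjusted p = 0.0235).

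Of the other scaffold proteins, NOP16 (-1.31), WDR74 (-1.19), LYAR (-1.06), RRP15 (-1.03), NIFK (-1.0) and PAK1IP1 (-0.81) fell by over 1.5-fold. RSL1D1 (-0.53), MAK16 (-0.53), SURF6 (-0.46) and NIP7 (-0.39) fell by less. NIFK binds the proliferation antigen Ki-67, and WDR74 is linked to the release of a helicase from the particle by the ATPase NVL, which itself changed by -0.56.

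**Figure D2:**
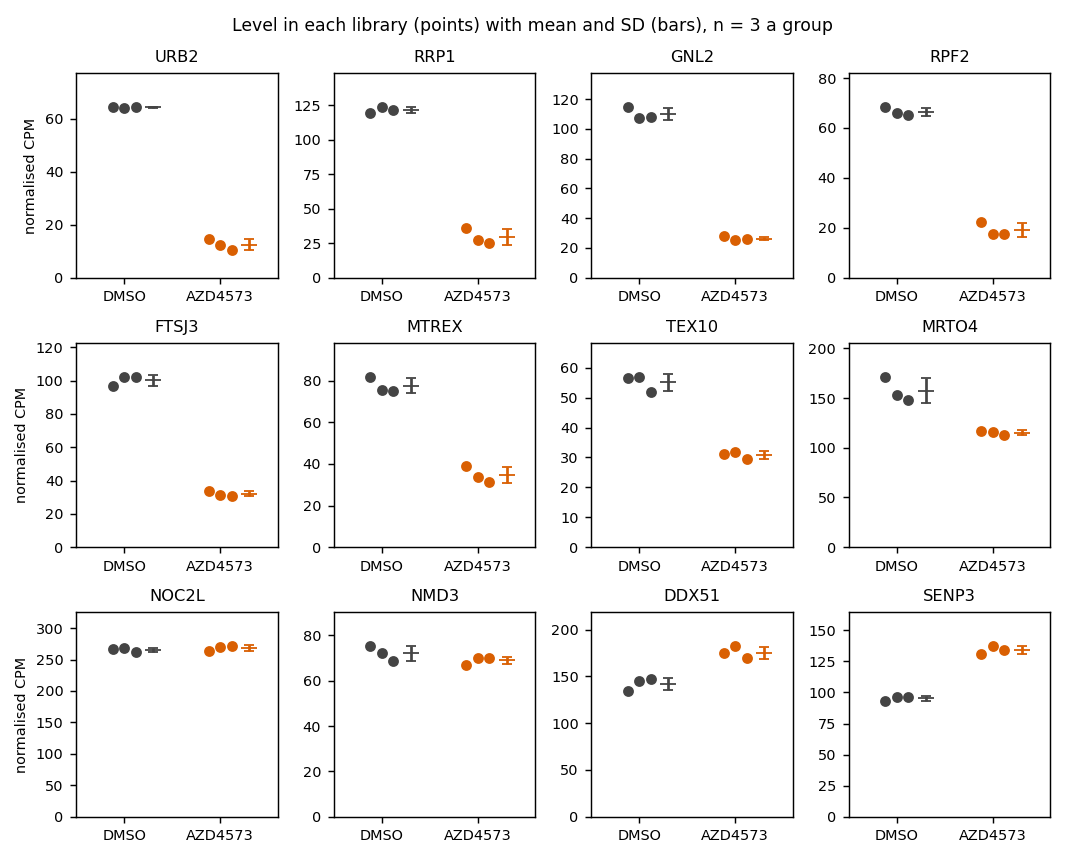
Normalised CPM (y axis, from 0) of 12 members in each library, with the mean and SD of 3 libraries as bars beside the points, for DMSO (grey) and AZD4573 (orange). The groups are apart for the 8 genes of the upper rows, overlap for NOC2L and NMD3, and lie in the opposite order for DDX51 and SENP3, whose rises become falls when the libraries are scaled to mitochondrial mRNAs.

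The Brix-domain proteins and RRS1, which take part in loading the 5S particle and in early folding, had a median of -1.15. Of these 5, 4 fell and 1 rose, against 37.4% and 37.3% of all genes tested. RPF2 (ENSG00000197498, chr6:110982015-111028263, plus strand), which together with RRS1 brings in the 5S particle, had 68.3, 65.9 and 65.1 CPM with DMSO and 22.1, 17.5 and 17.5 CPM with AZD4573. It fell 3.49-fold (-1.80 ± 0.0793 (SE), adjusted p = 3.3e-10), and the groups were far apart. RPF1 (-1.68), RRS1 (-1.15) and BRIX1 (-0.46) also fell. PPAN, the remaining Brix-domain member, had 184, 197 and 198 CPM with DMSO and 222, 230.0 and 213 CPM with AZD4573. PPAN rose 1.15-fold (0.20 ± 0.0453 (SE), adjusted p = 0.0014), which became -0.54 on scaling to mitochondrial mRNAs and 0.09 without a call when library size alone was used.

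PPAN's count is uncertain, since 49.2% of its exon bases also belong to other genes. The readthrough gene PPAN-P2RY11 rose by 0.62 on the log2 scale and P2RY11, the receptor gene downstream, by 1.65. Reads from the shared bases can be given to any of the overlapping genes, and their part in PPAN's value was not tested.

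PES1, BOP1 and WDR12 form a complex that is needed for processing of ITS2 and for the proliferation of cells. All 3 fell. PES1 had 219, 211 and 207 CPM with DMSO and 129, 118 and 113 CPM with AZD4573, a 1.77-fold fall (-0.82 ± 0.0514 (SE), adjusted p = 7e-09). BOP1 had 259.5, 268 and 265 CPM with DMSO and 239.9, 237 and 234 CPM with AZD4573, a fall of only 1.12-fold (-0.16 ± 0.0379 (SE), adjusted p = 0.002). Both genes had groups without overlap, and WDR12 lay near PES1 at -0.72. The subunits therefore fell by unequal amounts, with BOP1 the least changed.

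Of 11 RNA helicases and AAA ATPases, 9 fell, 1 rose and 1 did not pass, with a median of -0.56. Among all genes tested, 37.4% fell and 37.3% rose. MTREX, the helicase that feeds precursor RNA to the exosome, had 81.9, 75.8 and 75.3 CPM with DMSO and 39.0, 33.5 and 31.3 CPM with AZD4573. It fell 2.25-fold (-1.17 ± 0.0719 (SE), adjusted p = 6.1e-09), with the groups far apart. Among the DEAD-box helicases, falls ranged from DDX55 (-1.07) and DDX31 (-1.05) through DDX18 (-0.84), DDX27 (-0.62) and DDX24 (-0.32) to DDX54 (-0.15) and DDX56 (-0.12), and these 7 passed the test.

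MDN1, a giant ATPase that strips other factors from the particle, had 147, 156 and 168 CPM with DMSO and 152, 152 and 147 CPM with AZD4573. The groups overlapped, and the difference of -0.06 ± 0.0501 (SE) did not pass (adjusted p = 0.28), whereas without DMSO replicate 1 it was -0.12 with an adjusted p of 0.0225. With library size as the only scaling, MDN1 was at -0.17 with an adjusted p of 0.0145. DDX51, which acts in the maturation of the 3′ end of 28S RNA, had 135, 145 and 147 CPM with DMSO and 175, 182 and 169 CPM with AZD4573. It rose 1.23-fold (0.30 ± 0.0466 (SE), adjusted p = 4.9e-05), and was at -0.43 with scaling to mitochondrial mRNAs. DDX51 starts 138 bp from NOC4L, a gene of the small-subunit pathway on the opposite strand, which rose by 0.58.

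The methyltransferases that modify the precursor and 28S RNA differed from each other. FTSJ3 (ENSG00000108592, chr17:63819433-63830012, minus strand) had 96.4, 102 and 102 CPM with DMSO and 33.7, 31.4 and 30.9 CPM with AZD4573, a fall of 3.13-fold (-1.65 ± 0.0517 (SE), adjusted p = 2.8e-11). NOP2, a cytosine methyltransferase and proliferation antigen, fell by 0.51 on the log2 scale. RRP8, an adenine methyltransferase, had 29.9, 29.1 and 29.6 CPM with DMSO and 31.8, 34.0 and 30.0 CPM with AZD4573. All AZD4573 values were above the DMSO values, the nearest at 30.0 against 29.9 CPM, and the difference of 0.11 ± 0.0586 (SE) did not pass (adjusted p = 0.099). It passed without AZD4573 replicate 3 (0.15, adjusted p = 0.0458) and with at least 10 counts required in every library (0.15, adjusted p = 0.031). On scaling to mitochondrial mRNAs, RRP8 was at -0.63. NOP2 shares 54.4% of its exon bases with an unnamed gene on the same strand (ENSG00000285238). That gene had 16.6, 14.5 and 18.9 CPM in the DMSO libraries and 0.727, 13.3 and 0.213 CPM in the AZD4573 libraries. Its part in the value of NOP2 was not tested.

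All 5 GTPases fell, from -2.06 for GNL2 to -0.22 for GNL3, where 37.4% of all genes tested fell. GNL2 (ENSG00000134697, chr1:37566816-37595937, minus strand), a nucleolar GTPase that acts as the particle moves to the nucleoplasm and becomes fit for export, had 114, 108 and 108 CPM with DMSO and 27.8, 25.3 and 25.9 CPM with AZD4573. It fell 4.18-fold (-2.06 ± 0.0533 (SE), adjusted p = 9.9e-12). GNL3 (nucleostemin), named for its abundance in stem cells, had 331, 336 and 325 CPM with DMSO and 286, 289.9 and 279 CPM with AZD4573, a fall of 1.16-fold (-0.22 ± 0.0386 (SE), adjusted p = 0.00019). Neither gene had overlapping groups. LSG1 (-0.71), which acts in the cytoplasm, GNL3L (-0.65) and GTPBP4 (-0.46) lay between them.

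The complex of PELP1, TEX10 and WDR18, with its partners LAS1L and SENP3, moved in both directions. TEX10 had 56.5, 57.0 and 51.8 CPM with DMSO and 31.3, 31.9 and 29.5 CPM with AZD4573, a fall of 1.78-fold (-0.84 ± 0.0565 (SE), adjusted p = 1.5e-08). PELP1, the scaffold of the complex, fell by 0.67 on the log2 scale. WDR18, the third subunit, had 164, 155 and 154 CPM with DMSO and 186, 192 and 193 CPM with AZD4573, a rise of 1.21-fold (0.27 ± 0.0423 (SE), adjusted p = 5.1e-05). None of the 3 subunits had overlapping groups.

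LAS1L, the endonuclease that cuts ITS2, had 95.2, 98.5 and 97.6 CPM with DMSO and 106, 112 and 111 CPM with AZD4573. It rose 1.13-fold (0.18 ± 0.0428 (SE), adjusted p = 0.0019). SENP3 (ENSG00000161956, chr17:7561919-7571969, plus strand), a protease that removes SUMO from PELP1 and other factors, had 92.8, 96.4 and 96.5 CPM with DMSO and 131, 137 and 134 CPM with AZD4573. SENP3 rose most among the members, by 1.41-fold (0.49 ± 0.0419 (SE), adjusted p = 1.5e-07). On scaling to mitochondrial mRNAs, SENP3 was at -0.25, WDR18 at -0.47 and LAS1L at -0.56, and LAS1L lost its call (0.07, adjusted p = 0.12) when library size alone was used. SENP3 shares 41.7% of its exon bases with the readthrough gene SENP3-EIF4A1, which was at 0.04 (adjusted p = 0.64).

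Of the 5 nucleoplasmic maturation factors, 3 fell and 2 rose, against 37.4% and 37.3% of all genes tested. TMA16, which binds late nuclear particles, had 43.4, 38.8 and 39.7 CPM with DMSO and 21.4, 20.3 and 18.6 CPM with AZD4573, a fall of 2.02-fold (-1.02 ± 0.0668 (SE), adjusted p = 1.1e-08). SDAD1 (-0.38) and NLE1 (-0.19), on which MDN1 acts, fell by less. NOP53, an adapter that brings the exosome to the particle, had 1189, 1109.7 and 1074 CPM with DMSO and 1427, 1463 and 1484 CPM with AZD4573.

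NOP53 rose 1.3-fold (0.38 ± 0.0464 (SE), adjusted p = 6.3e-06), with the groups apart. NSA2, which assembles beside NLE1, had 98.3, 89.6 and 85.9 CPM with DMSO and 113, 115 and 115 CPM with AZD4573. It rose 1.25-fold (0.32 ± 0.0518 (SE), adjusted p = 6.9e-05). Both turned negative on scaling to mitochondrial mRNAs, at -0.36 for NOP53 and -0.42 for NSA2. NSA2 shares 54.4% of its exon bases with other genes. Of these, GFM2 and FAM169A lie on the opposite strand, which the counting did not tell apart, and GFM2 rose by 0.28 while FAM169A fell by 1.32 on the log2 scale.

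Factors of export and of the cytoplasm had a median of -0.06, with 2 of the 5 lower and 1 higher. The share of lower ones was near the 37.4% of all genes tested, of which 37.3% were higher. MRTO4, which holds the place of the ribosomal stalk protein, had 171, 153 and 148 CPM with DMSO and 117, 116 and 113 CPM with AZD4573, a fall of 1.36-fold (-0.45 ± 0.054 (SE), adjusted p = 4.8e-06). ZNF622, a cytoplasmic release factor, fell by 0.32 on the log2 scale. NMD3, the adapter for nuclear export, had 75.2, 72.3 and 68.8 CPM with DMSO and 67.1, 70.0 and 69.8 CPM with AZD4573. The groups overlapped for NMD3, and the difference of -0.06 ± 0.0485 (SE) did not pass (adjusted p = 0.25). With library size as the only scaling, NMD3 was at -0.17 with an adjusted p of 0.0050.

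RSL24D1, which occupies the site of a ribosomal protein until the cytoplasm is reached, had 138, 124 and 119 CPM with DMSO and 128, 127 and 132 CPM with AZD4573. It overlapped as well, with a difference of 0.02 ± 0.0527 (SE) and an adjusted p of 0.70. EIF6, which keeps the subunits from joining, had 118, 106 and 108 CPM with DMSO and 119, 126 and 133 CPM with AZD4573. EIF6 rose 1.14-fold (0.19 ± 0.0539 (SE), adjusted p = 0.0066), but it did not pass without DMSO replicate 2 (0.15, adjusted p = 0.0533) or with library size alone (0.08, adjusted p = 0.15). It was at -0.55 on scaling to mitochondrial mRNAs.

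RRP36, which is counted with the list although it acts on the 18S side of the precursor, had 67.0, 63.4 and 61.8 CPM with DMSO and 29.6, 27.8 and 24.8 CPM with AZD4573. It fell 2.34-fold (-1.23 ± 0.0654 (SE), adjusted p = 1.6e-09), with no overlap.

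Set in the order of assembly, the 39 members that act in the nucleolus had a median of -0.62, with 34 lower, 2 higher and 3 not passing. The 14 members of the nucleoplasm, with GNL2 placed among them, had a median of -0.28, with 8 lower, 5 higher and 1 not passing. The 6 members of export and the cytoplasm had a median of -0.19, with 3 lower, 1 higher and 2 not passing. Among all genes tested, 37.4% were lower and 37.3% higher. The share of higher members was thus near that of all genes in the nucleoplasm and below it in the other 2 stages. The medians thus stood in the order of assembly, but the ranges overlapped widely (-2.37 to 0.30 in the nucleolus and -2.06 to 0.49 in the nucleoplasm), and the difference between stages was not tested. Each member was assigned to a single stage for this comparison, and the order of the medians rests on that assignment. Values in the cytoplasm ran from -0.71 for LSG1 to 0.19 for EIF6.

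A ratio of 2 genes within a library does not depend on any scaling. The unequal changes of related members were therefore also read as ratios, for 10 pairs chosen after their values were seen. The log2 ratio of URB2 to URB1 counts was 0.15, -0.05 and -0.05 with DMSO and -1.97, -2.09 and -2.31 with AZD4573, a mean difference of -2.14. That of GNL2 to GNL3 went from -1.53, -1.64 and -1.59 to -3.37, -3.52 and -3.43, a difference of -1.85. That of RRP1 to RRP1B went from -1.24, -1.14 and -1.15 to -2.45, -2.80 and -2.86, a difference of -1.53. In each case the gene with the larger fall lost ground in every AZD4573 library.

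The other 7 pairs had smaller shifts. PELP1 to SENP3 differed by -1.17, FTSJ3 to NOP2 by -1.14 and TEX10 to WDR18 by -1.11. PES1 to BOP1 differed by -0.67, RPF2 to RRS1 by -0.66 and WDR12 to BOP1 by -0.57, while PES1 to WDR12 differed by only -0.10. The libraries of the 2 groups did not overlap for any of the 10 pairs, which their choice made likely, and no share over other pairs was taken. An exact permutation test of 3 against 3 libraries cannot go below a two-sided p of 0.1, and no test is given for pairs chosen in this way.

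**Figure D3:**
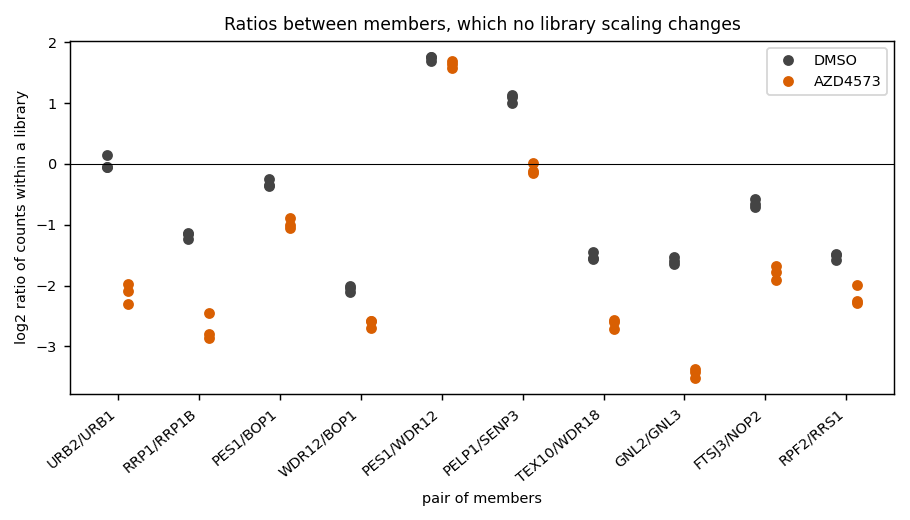
Log2 ratio of counts within each library (y axis) for 10 pairs of members, with DMSO in grey and AZD4573 in orange, 3 libraries each. The ratio falls by 2.14 for URB2/URB1 and by 0.10 for PES1/WDR12, and the groups do not overlap for any pair shown. The pairs were chosen after their values were seen, which made such separation likely.

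Levels can be compared between genes only per length, here as CPM per kb of exon, the union of a gene's annotated exons. With DMSO the members ranged from 4.27 CPM per kb for RRP8 to 211 CPM per kb for NOP53, with a median of 25.1, against a median of 2.47 for all genes tested. RRS1 (111) and GNL3 (102) followed NOP53. The level per kb had a Spearman correlation of 0.22 with the log2 fold change over the 60 members and of -0.33 over 17638 genes, which all come from the same 6 libraries. Gene span (-0.17 over the members), exon length (0.08) and number of exons (-0.01) had weak correlations with the log2 fold change. Over the 17638 genes these correlations were -0.10, -0.11 and -0.07. The median span was 23593 bp for the 46 members that fell and 10782 bp for the 8 that rose, against 23235 bp for the 17638 genes.

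**Figure D4:**
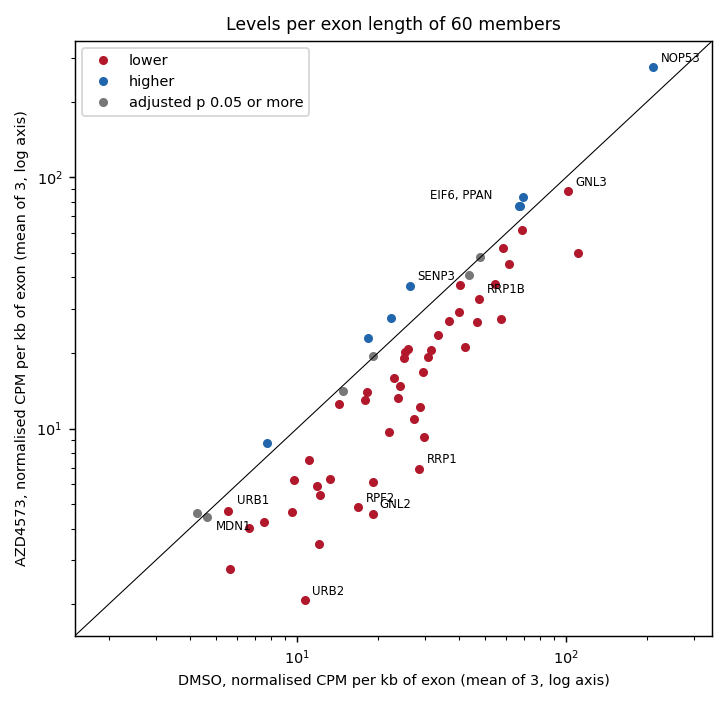
Mean normalised CPM per kb of exon with DMSO (x axis) and AZD4573 (y axis), both on log axes, for the 60 members, with the line of equality. NOP53 is the most abundant at 211 CPM per kb with DMSO, URB2, GNL2 and RRP1 lie farthest below the line, and the genes above it are above it under TMM scaling and not under scaling to mitochondrial mRNAs.

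The annotation of the members was uneven. In GENCODE 44, 39 of the 60 shared some exon bases with another gene, and 4 shared over 25%. Of these 4, 3 were among the 8 higher members (PPAN, SENP3 and NSA2) and 1 among the 46 lower (NOP2). No such shares were taken over all genes tested, and a link between sharing and direction was not tested. For 18 members there were pseudogenes carrying their name, whose reads RSEM can divide between copies, and RSL24D1 had 9 of them. Small nucleolar RNA genes lay within 5 members (DDX55, GNL3, NOP53, PPAN and URB1), 8.33% of the list against 1.56% of the protein-coding genes tested, and GNL3 held 6 such genes. A neighbour started head to head within 1000 bp of 31.7% of the members, against 20.2% of the protein-coding genes tested.

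Many genes of ribosome assembly are known targets of MYC, which binds the E-box CACGTG together with other factors of its family. This palindromic motif was searched in the RefSeq promoter windows on GRCh38.p14, which take 250 bases before and 50 bases from each start and cover 52 of the 60 members. A gene was counted if the motif lay in the window of any of its starts. It was present in 18 of the 52 (34.6%), against 12.3% of 11422 tested genes and 8.77% of all 27305 genes with a window. The 18 members with the motif held 16 lower, 0 higher and 2 not passing, with a median of -0.59. The 34 without it held 22 lower, 8 higher and 4 not passing, with a median of -0.42, and the difference was not tested. Of all genes tested, 37.4% were lower and 37.3% higher. No such shares were taken for tested genes with and without the motif, so the counts do not tell what goes with the motif.

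In 9 members the motif lay before the start. Of these, 4 whose printed bases lie outside annotated exons are shown as examples of the motif in its setting, 3 from members that fell (TEX10 -0.84, SURF6 -0.46, SDAD1 -0.38) and 1 from a member that did not pass (MDN1 -0.06). The motif is in capitals, and each sequence reads 5′ to 3′ on the strand of the gene, the minus strand in all 4. They come from chr9:100352943-100352999 (TEX10), chr9:133336380-133336438 (SURF6), chr4:75991141-75991195 (SDAD1) and chr6:89819917-89819976 (MDN1), where the motif begins 30, 224, 228 and 155 bases before the start.
TEX10: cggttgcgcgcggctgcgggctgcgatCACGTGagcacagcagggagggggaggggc
SURF6: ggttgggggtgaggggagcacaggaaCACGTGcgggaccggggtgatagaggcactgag
SDAD1: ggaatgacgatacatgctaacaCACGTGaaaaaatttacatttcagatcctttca
MDN1: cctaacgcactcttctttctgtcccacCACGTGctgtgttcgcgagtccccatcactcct
The same 6 letters thus stood before genes with unlike changes, and a match is no evidence of binding.

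The wider pathway was read from lists of related genes. Over all genes tested, TMM scaling gave 37.4% lower and 37.3% higher. Of 38 other genes of 60S assembly and rRNA processing, 33 were lower, 2 higher and 3 did not pass, with a median of -0.81, from HEATR3 (-2.97) to REXO5 (0.36). Of 59 genes of the small-subunit processome and 40S assembly, 49 were lower, 6 higher and 4 did not pass, with a median of -0.80, from RCL1 (-2.36) to NOC4L (0.58). The 47 proteins of the large subunit itself, which the assembly factors put in place, stood apart: all 47 were higher, with a median of 0.55, from RPL36A (0.22) to RPL37 (0.88). Scaled to mitochondrial mRNAs, their median was -0.18, and 31 of the 47 were lower, a share near the 67.2% of all genes. Under TMM scaling, most assembly factors were thus lower where the ribosomal proteins were higher.

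**Figure D5:**
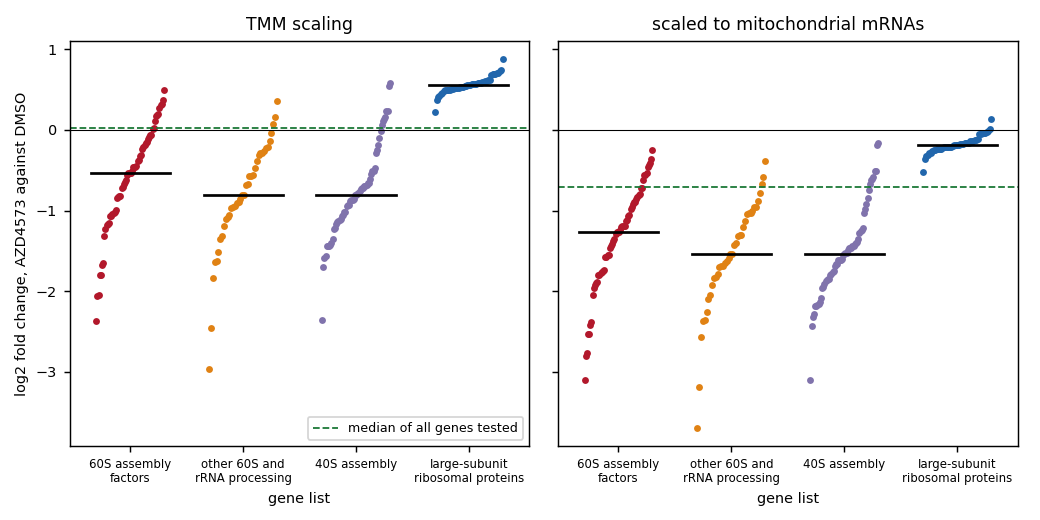
Log2 fold change (y axis) of each gene of 4 lists, sorted within a list, under TMM scaling (left) and scaling to mitochondrial mRNAs (right), with a black bar at the list's median and a dashed line at the median of all genes tested. The members' median is -0.53 on the left and -1.27 on the right, while that of the large-subunit ribosomal proteins goes from 0.55 to -0.18.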

How the data were processed

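Per the labels, poly(A) RNA of H9 cells was sequenced from 3 DMSO and 3 AZD4573 samples. The supplemental methods describe rRNA depletion. According to the submitters' processing notes, the authors used cutadapt 2.3, STAR 2.7.8a on GRCh38 and RSEM 1.3.3, which at its defaults ignores strand. The deposited values are expected counts per gene in whole numbers, not normalised, for 61541 genes and 5 reporter sequences. GENCODE 44 matched 61369 gene IDs and all 60 members, and RefSeq promoters matched 52.

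In R 4.3.3 with edgeR 4.0.16, 17678 genes passed the filter (minimum count 10), libraries were TMM-normalised, and edgeR's quasi-likelihood test compared the groups, with p-values adjusted over these genes by the Benjamini-Hochberg method. Tables were made in Python 3.11.15. CPM errors are SD of 3 libraries. Scaling to mitochondrial mRNAs took the summed counts of the 13 mRNAs as the library size. The alternatives were other scalings, filters, DESeq2 1.42.0, a replicate block and leaving out each library. The members and lists were chosen with earlier results of these data known. Values in every library were given for the lowest and highest member of each role, for each higher or not passing member and for RRP1. In simulated data for this comparison, 156 of 200 genes changed 2-fold were recovered (100 of 100 at 10 CPM or more), and 12 of 17478 unchanged genes were called. The simulation changed far fewer genes than were called in the data, up and down alike, with no shift common to all genes. It therefore cannot show whether the scaling is right, on which the rises depend. Chi-square per degree of freedom between libraries of a group was 5.59 to 21.2, so none is a copy of another.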

Additional observations from a re-analysis of the deposited data

How the results depend on the processing

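Scaling changed the values most. With library size as the only scaling, 5 members were higher and the median was -0.63, while with scaling to mitochondrial mRNAs 0 were higher, 52 were lower by 1.5-fold and the median was -1.27. Without a filter the median was -0.57, and -0.69 relative to all genes. With at least 10 counts in every library it was -0.49, and -0.51 relative to all genes. Leaving out each library in turn gave medians of -0.56 to -0.52, and -0.60 to -0.54 relative to all genes. Scaling to mitochondrial mRNAs turned 11 positive values negative, namely SENP3 to -0.25, NOP53 to -0.36, NSA2 to -0.42, DDX51 to -0.43, WDR18 to -0.47, PPAN to -0.54, EIF6 to -0.55, LAS1L to -0.56, RRP8 to -0.63, RSL24D1 to -0.72 and NOC2L to -0.73. NOC2L and RSL24D1, both near 0, were also negative with library size alone (-0.0921, past the threshold, and -0.0802) and without a filter (-0.0296 and -0.0194). Leaving out libraries gave -0.0095 to 0.0221 for NOC2L and -0.0320 to 0.0751 for RSL24D1, with the sign turned without DMSO replicate 3 or AZD4573 replicate 3 for NOC2L and without DMSO replicate 2 or 3 for RSL24D1. The causes were not tested. Of 351 values of named members under alternatives, 317 kept their direction and side of the threshold. Counted by gene, 13 of the 27 named members kept both in every alternative, and 18 in every alternative but the mitochondrial scaling. DESeq2 and the replicate block each gave 46 lower and 8 higher members, with medians of -0.53. Same-numbered libraries did not deviate together (correlations of -0.02, 0.04 and 0.03), so that the numbers do not pair them, and the replicate block changed no call among the named members. With 3 libraries per group, no group was tested for outlying samples, and differences as small as those of EIF6, RRP8, MDN1 and EBNA1BP2 turned on 1 library. Scaling mattered too, as library size alone took MDN1, EBNA1BP2 and NMD3 past the threshold and EIF6 below it. The choice of filter took RRP8 and EBNA1BP2 past the threshold as well.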
